A study of Mus musculus with 12 samples.

Results

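This account covers 47 genes of the lysosome, chosen by symbol from the deposited gene table of a bulk RNA-Seq experiment: 3 transcription factors of the MiT/TFE family, 8 membrane proteins and channels, 10 proteases, 9 glycosidases, 4 sulfatases, 6 lipid and fatty-acyl hydrolases with their activators, 3 genes for sorting receptors and progranulin, and 4 subunits or accessory proteins of the proton pump. The table lists 57010 genes. All 47 were found in it, and all 47 were among the 16502 genes that passed the filter on low counts.

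The cells were NE-4C, a line of neural progenitors from embryonic mouse brain that lacks p53. WT cells were compared with 1 knockout line in which CRISPR-Cas9 had removed exon 4 of Faf2, whose protein sits in the membrane of the endoplasmic reticulum and helps to draw misfolded proteins out of it for degradation. Each genotype was sampled without induction (NO) and after induction with 1 µM all-trans retinoic acid (RA) for 24 h, collected on day 3. The groups WT NO, WT RA, KO NO and KO RA held 3 libraries each, from 3 passages, so p-values measure the spread between passages of 1 WT line and 1 knockout line, and genotype cannot be told apart from other differences between those lines. RA induction cannot be told apart from the time in culture that went with it.

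The lysosome is the acidic compartment in which cells break down proteins, glycans and lipids. Most of its soluble hydrolases are tagged with mannose 6-phosphate in the Golgi and carried to it by receptors, and a proton pump, the V-ATPase, keeps its lumen acidic. Many of its genes share an E-box in the promoter, the CLEAR element, which is bound by TFEB, TFE3 and MITF, and these factors are held in the cytosol by mTORC1 at the lysosomal surface when nutrients are plentiful.

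To show that element in these genes, the 250 bases before and the 50 bases after each canonical transcription start were searched on GRCm39. The letters TCACGTGA, which read the same on both strands, were found in 4 of the 47 promoters (8.51%) and in 1.11% of 21664 promoters of protein-coding genes. Their shorter core CACGTG, which those matches contain, stood in 13 (27.7%) against 7.84%, and the letters TGACGT, read on either strand and not part of the others, in 6 (12.8%) against 8.56%. Of the genes with the full 8 letters, Mcoln1 and Cln3 recur below by name, and Ctsb and Gla only within counts, medians and figures. The 5 windows with those letters are printed here, together with 1 core each from Lamp1 and Ctsd. Each runs 5′ to 3′ on the gene's strand, with the matched letters in capitals, and positions count from the first transcribed base as 0.
Mcoln1, chr8:3550462-3550491 on the plus strand, positions 21 to 28, within the first exon: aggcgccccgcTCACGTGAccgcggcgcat
Cln3, chr7:126182512-126182541 on the minus strand, positions -111 to -104: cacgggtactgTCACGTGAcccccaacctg
Ctsb, chr14:63359879-63359908 on the plus strand, positions 13 to 20, within the first exon: gcggtcaagcaTCACGTGAcgaatcagccc
Gla, chrX:133501964-133501993 on the minus strand, positions -78 to -71: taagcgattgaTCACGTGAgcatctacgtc
Gla, chrX:133501931-133501960 on the minus strand, positions -45 to -38: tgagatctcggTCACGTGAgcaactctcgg
Lamp1, chr8:13209089-13209116 on the plus strand, positions -21 to -16: gggcaagatatCACGTGgtccagcgccc
Ctsd, chr7:141941793-141941820 on the minus strand, positions -34 to -29: cttccttccccCACGTGacctgtatcca
A match is only a match of letters. The Lamp1 promoter held 4 cores in all, and neither core nor full letters were found in this window of Hexa, Gusb, Lamp2, Lgmn or Tpp1.

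Levels are given as CPM (edgeR's cpm function on the estimated counts, with TMM factors), and the deposited counts had already been corrected for gene length, so levels of different genes are compared per length. Library totals ran from 17370069 to 30738717. The third KO RA library stood apart from the rest. Its TMM factor was 0.394 against 0.872 to 1.28 in the other 11, its 100 most abundant genes took 62.5% of its counts against 37.1 to 50.4%, and mitochondrial transcripts took 23.5% against 9.1 to 17.7%. The 47 genes together summed to 1127 CPM without TMM factors there against 1823 to 2948 elsewhere, the lowest sum, and to 2865 against 1750 to 2480 with them, the highest. It entered the fit that shares 1 estimate of the spread over all groups. Of 235 SEs of members (47 genes in 5 comparisons), 221 were larger with it than without it and 14 smaller. Calls of members, and many but not all values of groups that hold it, are therefore given with and without it. The third WT NO library also differed from its 2 partners in several lysosomal genes, as described with those genes. Faf2, as a check of the labels, was at 50.01, 38.9 and 36.0 CPM in WT NO and at 21.0, 21.7 and 25.4 CPM in KO NO, which do not overlap, and at 35.1, 37.9 and 49.1 CPM in WT RA against 36.1, 34.3 and 18.7 CPM in KO RA, which do. Gene counts do not show exon 4. Of 5 neural progenitor markers, all were detected in every group, with summed levels of 254 to 300 CPM in WT NO and 255 to 289 CPM in KO NO. The largest part was Otx2, the only one that overlapped. Pax6 was at 4.12 to 9.30 CPM in WT NO and at 0.791 to 2.01 CPM in KO NO (log2 fold change -2.50, adjusted p = 0.0264, edgeR). Nes (-0.51, adjusted p = 0.337) and Cdh2 (-0.67, 0.223) were lower and Sox2 (0.72, 0.568) higher. Without the third KO RA library the adjusted p was 0.00815 for Pax6, 0.0664 for Nes, 0.0188 for Cdh2 and 0.0664 for Sox2. Macrophages and microglia are rich in lysosomes. Of their 10 markers, 7 or 8 were at or under 3 counts in every library of each group, among them Csf1r, Adgre1 and Cx3cr1, and the summed level, 2.87 to 37.3 CPM over all libraries, was mostly Lyz2.

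In untreated WT cells the 47 genes spanned a wide range. Ctsl, a cysteine protease, was the most abundant at 239 CPM (± 19.2, SD, n = 3), followed by Lamp1, a heavily glycosylated protein of the limiting membrane, at 214.5 (± 9.69), M6pr, the cation-dependent mannose 6-phosphate receptor, at 152.6 (± 10.97), Ctsd, an aspartic protease, at 135.7 (± 9.98), and Psap, the precursor of the saposins that present sphingolipids to their hydrolases, at 107.1 (± 31.3). Lamp1 and M6pr differed by more than the sum of their SDs, whereas Ctsl and Lamp1, M6pr and Ctsd, and Ctsd and Psap differed by less. Tfe3 stood in seventh place at 82.0 (± 14.96) CPM, while the related factors Tfeb and Mitf were at 1.36 (± 0.341) and 0.663 (± 0.416). The lowest was Ctsh, an aminopeptidase of the cathepsin family, at 0.464 (± 0.357). Within the glycosidases the highest were Gaa, which degrades glycogen, at 18.0 and Man2b1, an alpha-mannosidase, at 16.7 CPM. Within the sulfatases it was Arsa, which acts on sulfatide, at 15.9 CPM, and within the proton pump group Atp6ap1, an assembly factor, at 64.3 CPM.

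**Figure D1:**
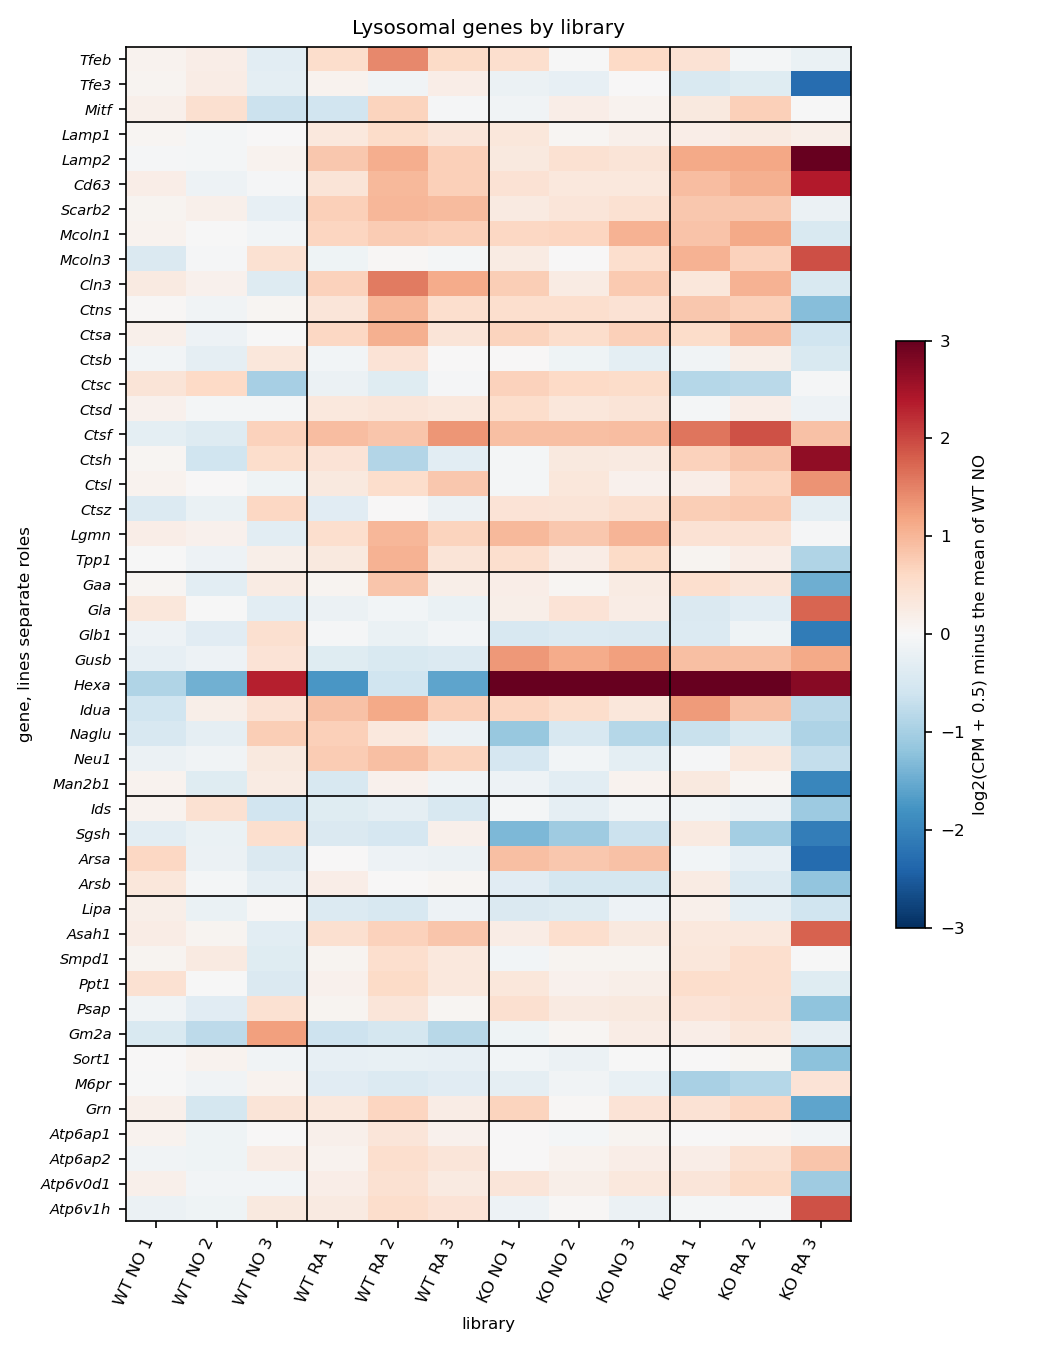
Heat map of the 47 lysosomal genes (rows, grouped by role) in the 12 libraries (columns). Colour gives log2(CPM + 0.5) minus the mean of the 3 WT NO libraries and is capped at 3, which Hexa passes in 5 of the 6 KO libraries and Lamp2 in 1; the third KO RA library, in the last column, differs from its 2 partners in many rows.

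The question of the first comparison was how untreated KO cells differed from untreated WT cells. Gusb, which encodes beta-glucuronidase, rose 2.38-fold in KO NO and was the only one of the 47 called (edgeR's quasi-likelihood test, p adjusted by Benjamini and Hochberg's method to be under 0.05). Among all genes tested, 0.788% were called higher and 0.351% lower, and a single gene among 47 is near that background. Before adjustment 5 passed 0.05 as higher and 1 as lower, beside 5.81% and 6.37% of all genes. When the third KO RA library was left out, 6 were called higher and 0 lower, beside a background of 4.43% and 4.35%. These were Gusb, Hexa, Lgmn, Mcoln1, Ctsd and Ctsa.

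Gusb (ENSMUSG00000025534, chromosome 5, 130017852 to 130031903, minus strand) was at 4.54, 4.84 and 7.39 CPM in WT NO and at 14.1, 12.4 and 13.6 CPM in KO NO. All 3 KO libraries lay above all 3 WT libraries. The log2 fold change was 1.25 (SE 0.23, adjusted p = 0.0268, edgeR). The adjusted p ranged from 2.91e-05 to 0.369 over 22 alternative settings and was under the threshold in 10, while the log2 fold change stayed between 1.12 and 1.52. Leaving out any 1 library of WT RA, any 1 of KO NO, or the first or second of WT NO took it over the threshold, to between 0.0505 and 0.147. An exon of Gusb overlaps one of Vkorc1l1 on the opposite strand, whose own log2 difference was -0.18 (adjusted p = 0.849, edgeR).

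Hexa (ENSMUSG00000025232, chromosome 9, 59446818 to 59474021, plus strand), the alpha subunit of beta-hexosaminidase, showed the largest difference of the 47. It was at 0.916, 0.481 and 12.9 CPM in WT NO and at 77.1, 68.0 and 73.1 CPM in KO NO. The groups did not overlap, but the third WT NO library was more than 10 times its 2 partners. The log2 fold change was 3.92 (SE 1.07) with an adjusted p of 0.127 by edgeR, which did not pass. It passed without the third KO RA library (adjusted p = 0.0443) and without the third WT NO library (log2 fold change 6.69, adjusted p = 0.00795), and over 21 settings the adjusted p ranged from 6.25e-06 to 0.312. That same WT NO library was also the highest of its group for Gm2a, the activator of GM2 ganglioside cleavage by beta-hexosaminidase A, at 11.7 CPM against 3.28 and 2.48. It was the highest as well for Naglu at 3.97 CPM against 1.41 and 1.70, for Ctsz at 72.2 CPM against 34.9 and 40.4, and for Psap at 142.1 CPM against 97.2 and 81.8, and it was the lowest for Ctsc at 30.8 CPM against 81.0 and 93.1. Its level of Lyz2, a lysozyme of macrophages and some epithelia, was 18.3 CPM against 4.44 and 3.59. The part of any admixture in these values was not tested. An exon of Hexa overlaps one of Tmem202 on the opposite strand. None of the other tested genes within 250 kb of Hexa or of Gusb was called in this comparison, and next to Hexa the smallest p was that of Arih1, with a log2 difference of 0.53 (adjusted p = 0.236, edgeR). These neighbours were looked up after the values of Hexa and Gusb had been seen.

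**Figure D2:**
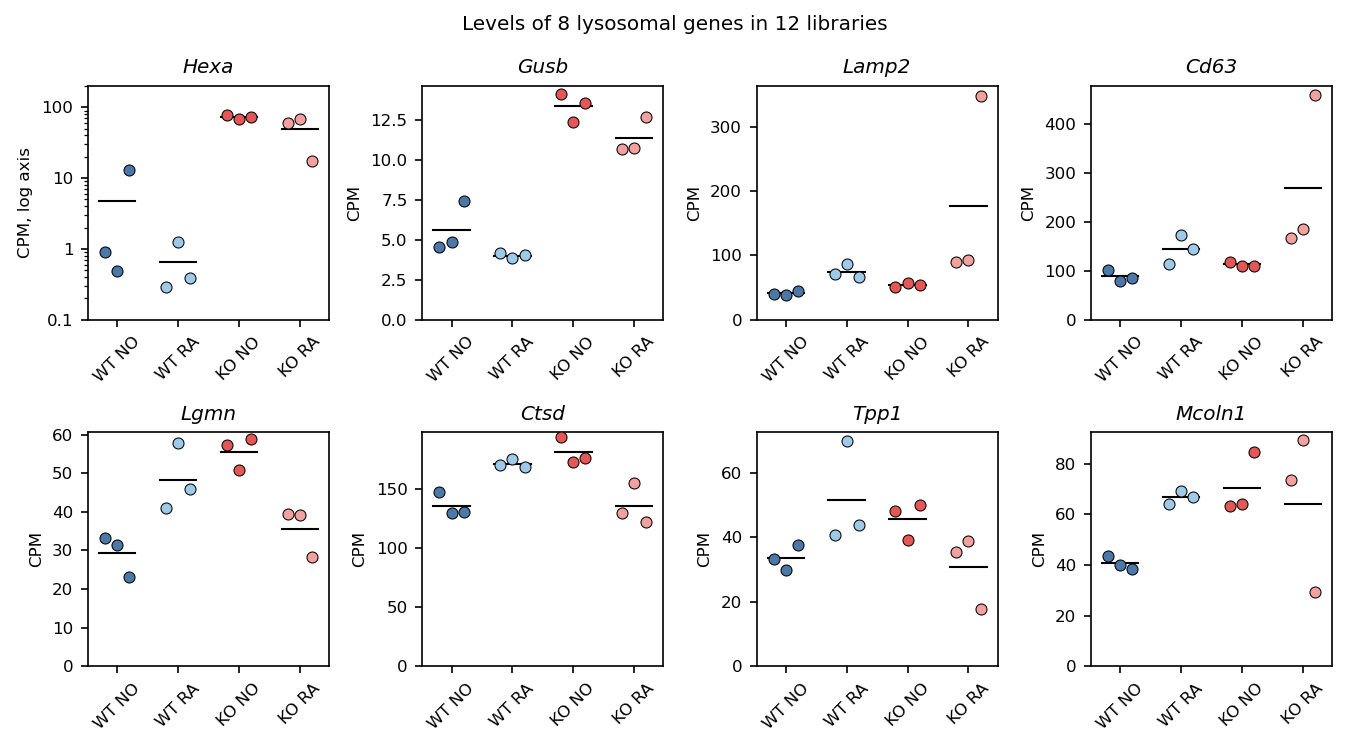
Level of 8 lysosomal genes in each of the 12 libraries, in CPM (linear axes from 0, with a log axis for Hexa). Points are libraries and black lines are group means. All KO libraries of Hexa and Gusb lie above all WT libraries, and the third KO RA library is far from its partners for Lamp2, Cd63 and Mcoln1.

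The 8 membrane proteins and channels all had a log2 fold change above 0 in KO NO, also when libraries were scaled by DESeq2's size factors or by totals alone. Their median was 0.40, beside a median of -0.02 over all genes tested. In 5 of the 8 the groups did not overlap, and the share of all genes with non-overlapping, higher KO NO libraries was 15.5%. None passed the threshold with all 12 libraries. Mcoln1, the lysosomal calcium channel TRPML1 and one of the genes with the 8-letter element, was at 43.6, 40.0 and 38.5 CPM in WT NO and at 63.2, 63.9 and 84.7 CPM in KO NO. Every KO library was above every WT library, with a log2 fold change of 0.79 (SE 0.33, adjusted p = 0.355, edgeR; 0.00651 without the third KO RA library). For the remaining members of the group, among them the membrane glycoproteins Lamp1 and Lamp2, the tetraspanin Cd63, the glucocerebrosidase receptor Scarb2 and the cystine exporter Ctns, the log2 fold change lay between 0.18 and 0.61. Some epithelial markers moved in the same comparison. Of 8 endoderm and epithelial markers, whose summed level was 90.2 to 148 CPM in WT NO and 135 to 184 CPM in KO NO, Cdh1 (E-cadherin) was at 8.95, 8.65 and 8.88 CPM in WT NO and at 38.4, 18.9 and 30.5 CPM in KO NO (1.73, SE 0.55, adjusted p = 0.194, and 1.74 and 0.0186 without the third KO RA library). The keratin Krt18 was at 0.564, 0.370 and 3.45 CPM and at 15.4, 7.67 and 11.6 CPM (2.97, SE 1.01, adjusted p = 0.235, and 2.96 and 0.0664 without the third KO RA library), also without overlap, and Gata4, a factor of endoderm and heart, was called lower (-2.21, adjusted p = 0.00531). The other 5 overlapped, with Sox17 at or under 3 counts in WT NO, and the part of these shifts in the lysosomal values was not tested.

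Of the 10 proteases 9 had a log2 fold change above 0, and their median was 0.43. Lgmn, which encodes legumain, an asparaginyl endopeptidase, had the smallest p. It was at 33.3, 31.5 and 23.1 CPM in WT NO and at 57.4, 50.8 and 58.8 CPM in KO NO. The groups lay well apart, with a log2 fold change of 0.93 (SE 0.23, adjusted p = 0.0864, edgeR; 0.00751 without the third KO RA library). Ctsd was at 147.2, 129.4 and 130.5 CPM in WT NO and at 194.1, 172.8 and 176.4 CPM in KO NO. Its groups did not overlap either, and its log2 fold change was 0.42 (SE 0.19, adjusted p = 0.413; 0.0327 without that library). An annotated gene on the same strand, Gm49369, shares exons with Ctsd, so its counts may be split. Ctsa, the protective protein that holds beta-galactosidase and neuraminidase together, had 0.64 (SE 0.34, adjusted p = 0.491; 0.0456 without that library), and Ctsf had 0.91 (SE 0.37, adjusted p = 0.333; 0.0883).

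The sulfatases and the remaining glycosidases moved in no common direction. Naglu, which removes N-acetylglucosamine from heparan sulfate, was at 1.41, 1.70 and 3.97 CPM in WT NO and at 0.703, 1.39 and 0.977 CPM in KO NO. Its KO libraries were below its WT libraries by a narrow margin, with a log2 fold change of -1.20 (SE 0.48, adjusted p = 0.33; 0.135 without the third KO RA library), and -0.60 without the third WT NO library. The heparan sulfatase Sgsh was at 4.58, 4.95 and 8.45 CPM in WT NO and at 1.96, 2.52 and 3.52 CPM in KO NO. Its groups did not overlap, with a log2 fold change of -1.17 (SE 0.56, adjusted p = 0.442; 0.102 without the third KO RA library). The sulfatase Arsb was at 2.89, 2.07 and 1.74 CPM in WT NO and at 1.61, 1.36 and 1.37 CPM in KO NO, lower without overlap, at -0.62 (SE 0.43, adjusted p = 0.669; 0.249), and Arsa, in the other direction, had 0.81 (SE 0.47, adjusted p = 0.563; 0.0516). In all, 33 of the 47 genes had a log2 fold change above 0, beside 48.3% of all genes, and 14 were higher and 5 lower without overlap, beside 15.5% and 15.2%. The median over the 47 was 0.27.

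The MiT/TFE factors themselves were not called. Tfe3 was at 85.2, 95.1 and 65.7 CPM in WT NO and at 72.1, 67.8 and 81.6 CPM in KO NO, and the groups overlapped, with a log2 fold change of -0.15 (SE 0.39, adjusted p = 0.961). Tfeb was at 1.48, 1.63 and 0.977 CPM against 2.11, 1.33 and 2.26 CPM, with 0.48 (SE 0.42, adjusted p = 0.775). Mitf was at 0.740, 1.03 and 0.214 CPM in WT NO and 0.527 to 0.770 CPM in KO NO, with 0.01 (SE 0.69), a value that took either sign as single libraries were left out. The transcript level does not show where in the cell these factors are. The lipid hydrolases, the sorting group and the proton pump group had medians of 0.09, -0.09 and 0.05, with no call. Lamp2 was at 39.4, 38.8 and 43.8 CPM in WT NO and at 50.03, 56.3 and 53.1 CPM in KO NO, without overlap (0.39, SE 0.44, adjusted p = 0.859; 0.0601 without the third KO RA library). Lamp1 was at 224.2, 204.8 and 214.4 CPM in WT NO and at 269.5, 222.8 and 238.0 CPM in KO NO (log2 fold change 0.18, SE 0.20). Psap was at 144.5, 125.6 and 128.5 CPM in KO NO (0.31, SE 0.38), and Grn, the gene for progranulin, was at 41.0, 25.1 and 47.9 CPM in WT NO and at 58.9, 37.7 and 49.1 CPM in KO NO (0.36, SE 0.46). Lamp1, Psap and Grn overlapped between the groups.

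**Figure D3:**
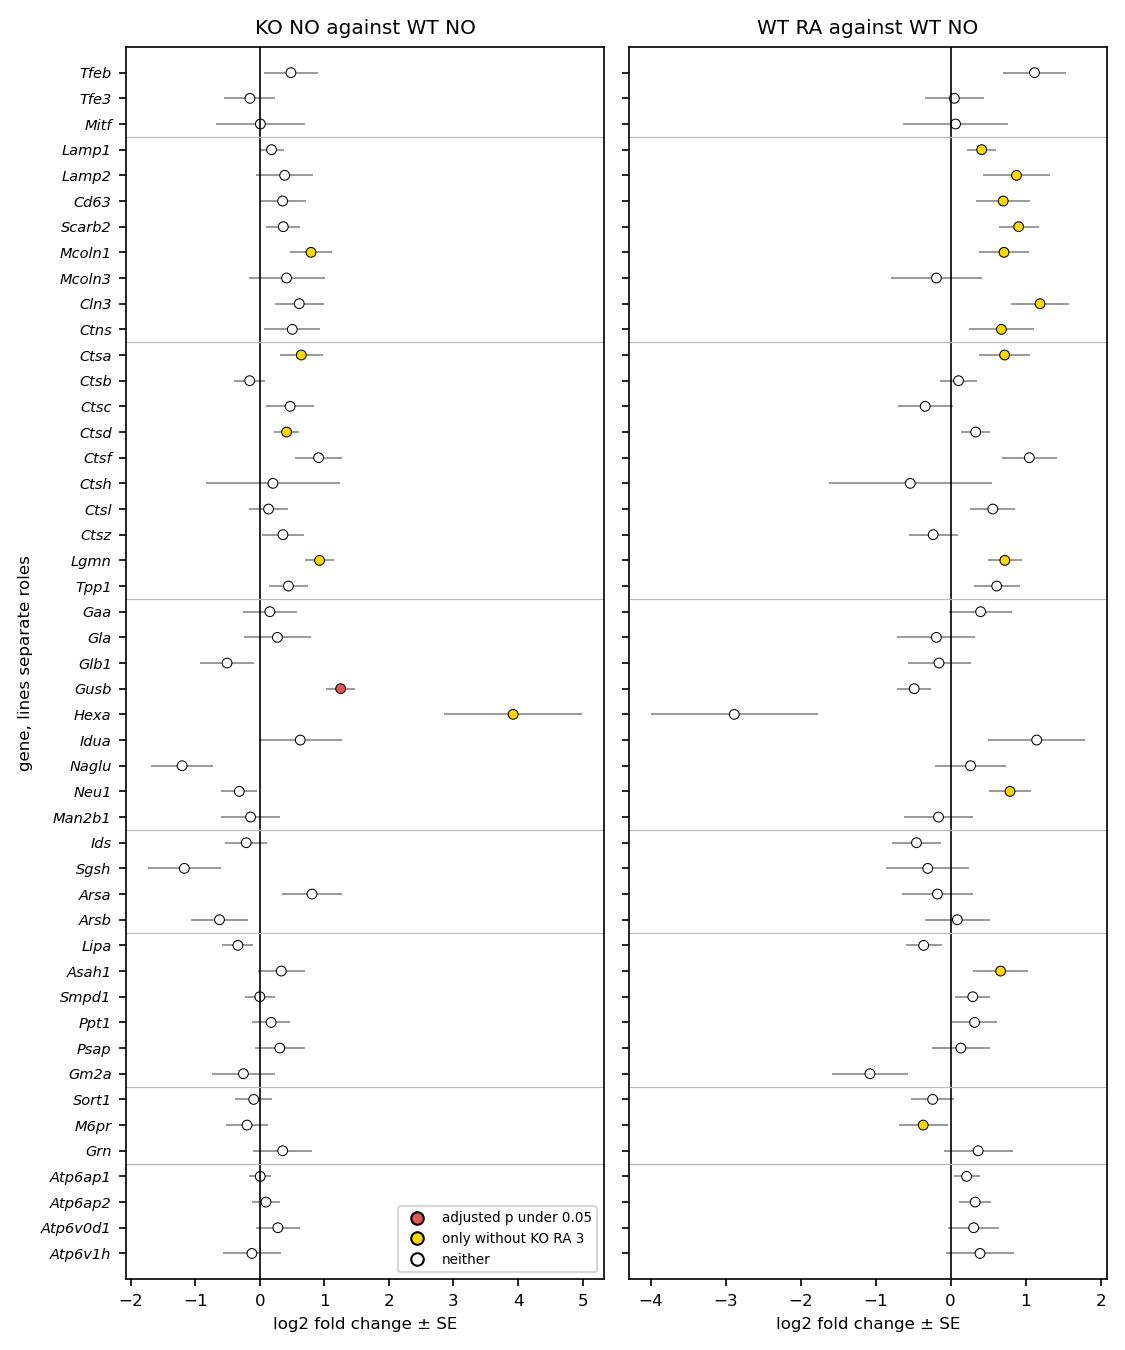
Log2 fold change with its SE (edgeR) of each of the 47 genes for KO NO against WT NO (left) and WT RA against WT NO (right), which share the WT NO libraries. Filled red points passed an adjusted p of 0.05 with all 12 libraries (Gusb, left), yellow points passed only without the third KO RA library (5 genes left, 12 right), and open points in neither; all 8 membrane proteins are right of 0 on the left and 7 of 8 on the right.

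The second comparison asked the same of RA-treated cells. Gusb and Hexa were called higher in KO RA than in WT RA and no other member was called in either direction, beside 0.885% of all genes called higher and 0.358% called lower. Before adjustment 6 passed 0.05 as higher and 4 as lower, beside 10.9% and 6.67%. Gusb was at 4.13, 3.83 and 4.01 CPM in WT RA and at 10.7, 10.7 and 12.7 CPM in KO RA. No library of one group came near the other, and the log2 fold change was 1.50 (SE 0.23, adjusted p = 0.0159, edgeR; 1.41 and 0.00477 without the third KO RA library). The adjusted p ran from 2.7e-07 to 0.191 and was under the threshold in 17 of 22 settings. The call was lost (adjusted p = 0.0832 to 0.09) when any 1 WT RA library was left out.

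Hexa was at 0.288, 1.26 and 0.382 CPM in WT RA and at 60.7, 69.2 and 17.1 CPM in KO RA. All KO libraries were far above all WT libraries, the third being the lowest of its group. The fitted log2 fold change was 6.25 (SE 1.24, adjusted p = 0.0389, edgeR), and 6.64 without that library (adjusted p = 0.0155). The adjusted p passed in 9 of 21 settings, from 6.86e-15 to 0.198. Leaving out any 1 library of WT RA or KO NO, or the first or second of KO RA, took it over the threshold, to between 0.052 and 0.198. The WT RA libraries held 5.7, 26.1 and 7.8 estimated counts of Hexa, so the size of this ratio rests on low values. These counts were corrected for length and are not numbers of fragments.

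With that library left out 3 members were called higher, Ctsz with a log2 fold change of 0.92 (adjusted p = 0.0445) beside Gusb and Hexa, and 1 lower, M6pr with -0.56 (adjusted p = 0.0132). The background was then 4.42% and 5.44%. M6pr was at 119.7, 115.3 and 120.4 CPM in WT RA and at 77.6, 84.1 and 204.2 CPM in KO RA. The third KO RA library lay on the other side of the WT RA libraries from its 2 partners, and with it the log2 difference was 0.04 (SE 0.33). Atp6v1h, a V-ATPase subunit, was likewise at 40.1 and 40.6 CPM in the first 2 KO RA libraries and at 159.1 CPM in the third, beside 50.6 to 60.9 CPM in WT RA. Mcoln3, Neu1, Naglu and Tpp1 had the smallest p among members not called. Mcoln3, the channel TRPML3, was at 0.385, 0.485 and 0.430 CPM in WT RA and at 1.49, 1.06 and 3.17 CPM in KO RA (log2 fold change 2.11, SE 0.62, adjusted p = 0.124, edgeR; 1.54 and 0.136 without that library). Neu1, a sialidase, was at 16.7, 18.5 and 15.7 CPM against 9.52, 12.2 and 5.75 CPM (-0.88, SE 0.28, adjusted p = 0.153; -0.65 and 0.0743). Neither pair of groups overlapped. Naglu was at 3.85, 2.81 and 1.86 CPM in WT RA and at 1.17, 1.43 and 0.892 CPM in KO RA (-1.27, SE 0.49, adjusted p = 0.226; -1.13 and 0.206), again apart. Tpp1, tripeptidyl peptidase 1, was at 40.8, 69.9 and 43.7 CPM in WT RA and at 35.5, 38.7 and 17.7 CPM in KO RA, lower without overlap (-0.74, SE 0.31, adjusted p = 0.25; -0.48 and 0.203). The members' median was -0.11 with and 0.01 without the third KO RA library, beside 0.09 and 0.01 over all genes. Those with groups apart were 6 higher and 9 lower, beside 9.97% and 10.9% of all genes, and 12 and 14 without that library, beside 25.3% and 21.8%.

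Tfe3 and Tfeb were lower in KO RA than in WT RA without overlap and without a call. Tfe3 was at 86.6, 75.5 and 92.6 CPM in WT RA and at 59.3, 63.2 and 16.4 CPM in KO RA (-0.87, SE 0.40, adjusted p = 0.285; -0.48 and 0.0898 without the third KO RA library). Tfeb was at 2.16, 4.46 and 2.24 CPM and at 1.99, 1.26 and 1.09 CPM (-1.02, SE 0.43, adjusted p = 0.254, and -0.87 and 0.243 without the third KO RA library). Mitf, near the lower end of the levels, was at 0.240, 1.26 and 0.573 CPM and at 0.858, 1.33 and 0.595 CPM, overlapping (0.44, SE 0.70, adjusted p = 0.783, and 0.66 and 0.623 without the third KO RA library). Lamp1 was at 265.9, 314.6 and 276.6 CPM in WT RA and at 244.3, 260.4 and 242.2 CPM in KO RA, lower without overlap (-0.20, SE 0.20, adjusted p = 0.631, and -0.18 and 0.369 without the third KO RA library). Ctsd, whose levels are given with the last comparison, was lower without overlap as well (-0.34, SE 0.19, adjusted p = 0.371, and -0.27 and 0.169 without the third KO RA library), and Lamp2 was higher without overlap (1.24, SE 0.45, adjusted p = 0.203, and 0.28 and 0.196 without the third KO RA library). Psap was at 110.0, 135.0 and 108.0 CPM in WT RA and at 138.0, 146.6 and 44.9 CPM in KO RA (-0.10, SE 0.38, adjusted p = 0.921, and 0.27 and 0.439 without the third KO RA library), and Grn was at 45.9, 57.9 and 43.1 CPM and at 50.01, 56.4 and 11.99 CPM (-0.31, SE 0.46, adjusted p = 0.768, and 0.11 and 0.832 without the third KO RA library). For Psap and Grn the third KO RA library lay far below the other 5 libraries, and without it the difference changed sign. Summed mesenchymal markers were at 58.2 to 77.2 CPM in WT RA and 70.8 to 467 CPM in KO RA, the highest being the third library. Neuronal ones were at 142 to 164 and 146 to 208 CPM, and endoderm and epithelial ones at 86.5 to 141 and 78.2 to 110 CPM. Most of the last sum was Epcam, which was lower without overlap (-1.02, adjusted p = 0.108, edgeR), as was Gata4 (-0.90, 0.15). Krt8 (3.69, 0.139) and Foxa2 (2.34, 0.294) were higher without overlap, and the rest overlapped. Without the third KO RA library Krt8 had 2.04 (adjusted p = 0.195). Of the 5 progenitor markers, Pax6 was called lower (-2.21, adjusted p = 0.0396, edgeR). Without overlap and without a call, Nes was higher (0.76, 0.106) and Otx2 lower (-0.84, 0.353), and Sox2 and Cdh2 overlapped. Without the third KO RA library the adjusted p was 0.0221 for Pax6, 0.038 for Nes and 0.178 for Otx2. The part of these markers in the lysosomal values was not tested.

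The third comparison was the RA response of WT cells. No member was called with all 12 libraries in either direction, beside 0.321% of all genes called higher and 0.0848% lower. Before adjustment 6 passed 0.05 as higher and 1 as lower, beside 6.76% and 5.79%. DESeq2 on all libraries called 5 higher and 0 lower, beside 3.27% and 2.64% of the genes it gave an adjusted p, and limma-voom 17 higher and 3 lower, beside 10.8% in each direction. Without the third KO RA library, which is not part of this contrast and enters through the estimate of the spread, edgeR called 11 higher and 1 lower, beside 5.65% and 5.13%. Of the 11, 7 were membrane proteins (Lamp1, Lamp2, Cd63, Scarb2, Mcoln1, Cln3 and Ctns). The remaining ones were the proteases Lgmn and Ctsa, the sialidase Neu1 and Asah1, acid ceramidase, and the lower one was M6pr.

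In 7 of the 8 membrane proteins and channels every WT RA library was above every WT NO library, beside 15.1% of all genes, and the median log2 fold change was 0.71, beside -0.01 over all genes. Scaled by library totals alone the medians were 0.47 and -0.26, and the same 7 stayed above 0. Of 20 other lysosomal membrane proteins among the further genes below, 4 were higher and 3 lower without overlap, with a median of 0.14. Without the third KO RA library 3 of those 20 were called higher and 2 lower. Scarb2 was at 13.4, 14.1 and 10.4 CPM in WT NO and at 20.9, 25.5 and 24.8 CPM in WT RA. The difference was well outside the spread, with a log2 fold change of 0.91 (SE 0.27, adjusted p = 0.188; 0.00514 without the third KO RA library). Cln3, a membrane protein mutated in juvenile neuronal ceroid lipofuscinosis, was at 9.90, 8.94 and 6.16 CPM in WT NO and at 13.6, 25.2 and 18.4 CPM in WT RA (1.19, SE 0.38, adjusted p = 0.228; 0.0256). Lamp2 was at 39.4, 38.8 and 43.8 CPM in WT NO and at 71.4, 86.3 and 66.6 CPM in WT RA (0.88, SE 0.44, adjusted p = 0.457; 0.00305). Mcoln3, the exception, was at or below 0.824 CPM in all 6 libraries.

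Among the other roles, Lgmn was at 33.3, 31.5 and 23.1 CPM in WT NO and at 41.2, 57.9 and 46.1 CPM in WT RA, without overlap (log2 fold change 0.72, SE 0.23, adjusted p = 0.211; 0.0197 without the third KO RA library). Tfeb was at 2.16, 4.46 and 2.24 CPM in WT RA, all above its 3 WT NO libraries (1.12, SE 0.42, adjusted p = 0.302; 0.0934), while Tfe3 (0.05, SE 0.39) and Mitf (0.07, SE 0.70) overlapped between the groups and took either sign as libraries were left out. Lamp1 (0.41, SE 0.20, adjusted p = 0.423; 0.037) and Ctsd (0.33, SE 0.19, adjusted p = 0.526; 0.0628) were higher without overlap, and Psap (0.14, SE 0.38) and Grn (0.37, SE 0.46) overlapped. The members with the smallest p in the lower direction were Hexa (-2.89, SE 1.11, adjusted p = 0.31), Gm2a, at 2.84, 3.06 and 2.39 CPM in WT RA (-1.08, SE 0.50, adjusted p = 0.41), and Gusb (-0.49, SE 0.23, adjusted p = 0.418). For Hexa and Gm2a this rests on the third WT NO library: without it the log2 differences were -0.12 and -0.06, and that of Gusb was -0.23. In all, 31 members had a log2 fold change above 0, beside 49.3% of all genes, 19 were higher and 3 lower without overlap, beside 15.1% and 14.0%, and the median over the 47 was 0.30. On library totals alone it was 0.07, beside -0.26 over all genes. Summed mesenchymal markers were at 11.1 to 23.2 CPM in WT NO and 58.2 to 77.2 CPM in WT RA, and summed neuronal markers at 80.8 to 113 and 142 to 164 CPM. The largest part of the neuronal sum was Stmn2. Of the 8 neuronal markers, Dcx, Map2 and Stmn2 were higher without overlap. Rbfox3 was lower without overlap (-2.73, SE 0.79, adjusted p = 0.183, edgeR), and the others overlapped. Of the 5 progenitor markers, Sox2 (1.04, adjusted p = 0.335, edgeR) and Pax6 (0.90, 0.418) were higher and Nes (-0.36, 0.532) lower, each without overlap. Otx2 and Cdh2 overlapped. Without the third KO RA library the adjusted p was 0.0169 for Sox2, 0.176 for Pax6 and 0.163 for Nes. In bulk RNA a changed share of a cell type and a changed level of RNA per cell cannot be told apart, and the part of such shifts in these values was not tested.

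A further comparison was the RA response of KO cells. Lamp2 was the 1 member called higher and none was called lower, beside 3.89% and 1.59% of all genes. Before adjustment 5 passed 0.05 as higher and 3 as lower, beside 15.8% and 9.42%. Lamp2 was at 50.03, 56.3 and 53.1 CPM in KO NO and at 90.2, 92.1 and 347.9 CPM in KO RA. Every KO RA library was above every KO NO library, but the third was more than 3 times its partners. The log2 fold change was 1.73 (SE 0.45, adjusted p = 0.0494, edgeR), and without that library 0.77 (SE 0.13, adjusted p = 0.00379), a smaller change with a smaller error. On library totals alone it was 0.99 (adjusted p = 0.136). The adjusted p passed in 8 of 22 settings, from 0.00125 to 0.239. Leaving out any 1 library of WT NO, WT RA or KO NO took it over the threshold, to between 0.0645 and 0.188.

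Cd63 was at 118.4, 109.8 and 110.0 CPM in KO NO and at 166.7, 184.0 and 457.9 CPM in KO RA, again without overlap and with the third library highest. Its log2 fold change was 1.26 (SE 0.36, adjusted p = 0.0681, edgeR; 0.63 and 0.0265 without that library). In the other direction Ctsc, which activates serine proteases of immune cells, was at 100.1, 92.9 and 90.9 CPM in KO NO and at 33.8, 34.8 and 60.2 CPM in KO RA. Its KO RA libraries were all lower, with a log2 fold change of -1.14 (SE 0.37, adjusted p = 0.0985; -1.47 and 0.0189 without that library). Mcoln3, at 0.644, 0.474 and 0.865 CPM in KO NO and 1.49, 1.06 and 3.17 CPM in KO RA, was higher without overlap (1.50, SE 0.59, adjusted p = 0.152; 0.93 and 0.321). Arsa was at 28.7, 26.8 and 28.3 CPM in KO NO and at 14.4, 12.6 and 2.68 CPM in KO RA (-1.48, SE 0.48, adjusted p = 0.0981; -1.06 and 0.0222). With it left out 2 members were called higher, Lamp2 and Cd63, and 3 lower, Ctsc, Arsa and M6pr, beside 8.48% and 7.54% of all genes. The members' median moved from 0.03 to 0.18, and that of all genes from 0.11 to -0.02. With all libraries 5 were higher and 6 lower without overlap, beside 13.2% and 17.0%, and without that library 16 and 9, beside 26.9% and 27.9%. Tfe3 (-0.67, SE 0.40, adjusted p = 0.306, and -0.28 and 0.267 without the third KO RA library), Ctsd (-0.42, SE 0.19, adjusted p = 0.199, and -0.36 and 0.0625 without the third KO RA library) and Lgmn (-0.64, SE 0.23, adjusted p = 0.121, and -0.51 and 0.08 without the third KO RA library) were lower without overlap. Tfeb (-0.38, SE 0.42), Mitf (0.50, SE 0.69) and Lamp1 (0.03, SE 0.20) overlapped. Psap (-0.27, SE 0.38, adjusted p = 0.682, and 0.09 and 0.819 without the third KO RA library) and Grn (-0.30, SE 0.46, adjusted p = 0.715, and 0.12 and 0.806 without the third KO RA library) overlapped too and changed sign without that library. Summed mesenchymal markers were at 15.8 to 15.9 CPM in KO NO and at 70.8 to 467 CPM in KO RA, neuronal ones at 72.4 to 90.6 and 146 to 208 CPM, and endoderm and epithelial ones at 135 to 184 and 78.2 to 110 CPM. None of the 3 sums overlapped. The 467 CPM was that of the third library, with Dcn at 345 CPM against 23.0 and 12.7 in its partners. Of the 8 neuronal markers, Tubb3, Map2, Elavl4 and Stmn2 were higher without overlap, and Dcx, Elavl3 and Snap25 overlapped. Of the 5 progenitor markers, Nes (0.92, adjusted p = 0.0304, edgeR) and Cdh2 (1.28, 0.0102) were called higher. Otx2 was lower without overlap (-1.14, 0.157), and Sox2 and Pax6 overlapped. Without the third KO RA library the adjusted p was 0.011 for Nes, 0.000471 for Cdh2 and 0.0224 for Otx2. Some markers went against their sum without overlap: Thy1 (mesenchymal) and Rbfox3 (neuronal) were lower, and Sox17, Gata4 and Gata6 higher. The part of these shifts in the lysosomal values was not tested.

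The last comparison asked whether RA acted differently in KO and WT cells, as the difference of the 2 responses, KO minus WT. No member was called and no gene of the 16502 was (0.00% in each direction) by edgeR, and DESeq2 and limma-voom each called 0 members higher and 2 lower, beside 1.37% and 0.608% of all genes for DESeq2 and 3.63% and 2.44% for limma-voom. Before adjustment 0 members passed 0.05 as higher and 5 as lower, beside 5.53% and 3.09%. The 5 were Lgmn, Ctsd, Tpp1, Cln3 and Tfeb. Lgmn was higher in WT RA than in WT NO, as given above, whereas it was at 57.4, 50.8 and 58.8 CPM in KO NO and at 39.6, 39.15 and 28.3 CPM in KO RA. All 3 libraries thus moved up in WT and all 3 down in KO, and the difference of the log2 responses was -1.36 (SE 0.32, adjusted p = 0.286, edgeR). Without the third KO RA library it was -1.24 (adjusted p = 0.0414), when 0 members were called higher and 1 lower, beside 0.802% and 0.537%. Over 20 settings its adjusted p ran from 0.00108 to 1 and passed in 4.

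Ctsd went from 147.2, 129.4 and 130.5 CPM to 170.0, 174.9 and 168.4 CPM in WT and from 194.1, 172.8 and 176.4 CPM to 129.6, 154.7 and 122.2 CPM in KO. Tpp1 went from 33.2, 29.9 and 37.7 CPM to 40.8, 69.9 and 43.7 CPM in WT and from 48.0, 39.3 and 49.8 CPM to 35.5, 38.7 and 17.7 CPM in KO. Both had opposite shifts with no overlap in either genotype, as Lgmn did, so 3 of 47 were up in WT and down in KO in this way, beside 0.497% of all genes, and 0 showed the mirror image, beside 0.388%. Without the third KO RA library these were again Lgmn, Ctsd and Tpp1, beside 1.51%, and the mirror image was shown by 1, Sort1, a sorting receptor, beside 1.40%. The differences were -0.75 for Ctsd (SE 0.27, adjusted p = 0.482, edgeR; -0.70 and 0.0611 without that library) and -1.19 for Tpp1 (SE 0.43, adjusted p = 0.483; -0.93 and 0.132). Cln3 had -1.36 (SE 0.54, adjusted p = 0.522; -1.07 and 0.206) and Tfeb -1.50 (SE 0.60, adjusted p = 0.523; -1.37 and 0.244), each with KO groups that overlapped. In the higher direction the smallest p belonged to Mcoln3 (1.69, SE 0.85, adjusted p = 0.614; 1.12 and 0.499), Ctsh (2.71, SE 1.52, adjusted p = 0.65; 1.50 and 0.626), which was at most 1.12 CPM in every library but the third of KO RA, where it was at 5.35, and Gm2a (1.14, SE 0.70, adjusted p = 0.658; 1.31 and 0.354). For Gm2a the value was 0.13 without the third WT NO library. Of the members described in every comparison, Tfe3 had -0.72 (SE 0.56), Mitf 0.43 (SE 0.98), Lamp1 -0.38 (SE 0.28), Psap -0.41 (SE 0.54) and Grn -0.66 (SE 0.65), and Lamp2 had 0.85 (SE 0.62) with and -0.12 (SE 0.17) without the third KO RA library. Without that library Tfe3 had -0.34, Psap -0.05 and Grn -0.25. By role, the median difference was -0.57 in the proteases and -0.54 in the membrane proteins (-0.45 and -0.39 without the third KO RA library), beside 0.12 (0.00) over all genes. It was -0.72 (-0.34) in the MiT/TFE factors, -0.06 (0.07) in the glycosidases, 0.15 (0.43) in the sulfatases and -0.03 (0.04) in the lipid hydrolases. The sorting group had 0.05 (-0.25) and the proton pump group -0.08 (-0.18). Over all 47 the median was -0.06 (-0.15), beside that 0.12 (0.00) over all genes. With all libraries 20 were above 0 and 27 below, and 17 were above 0 without the third KO RA library. The share of all genes above 0 is not given for this comparison.

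**Figure D4:**
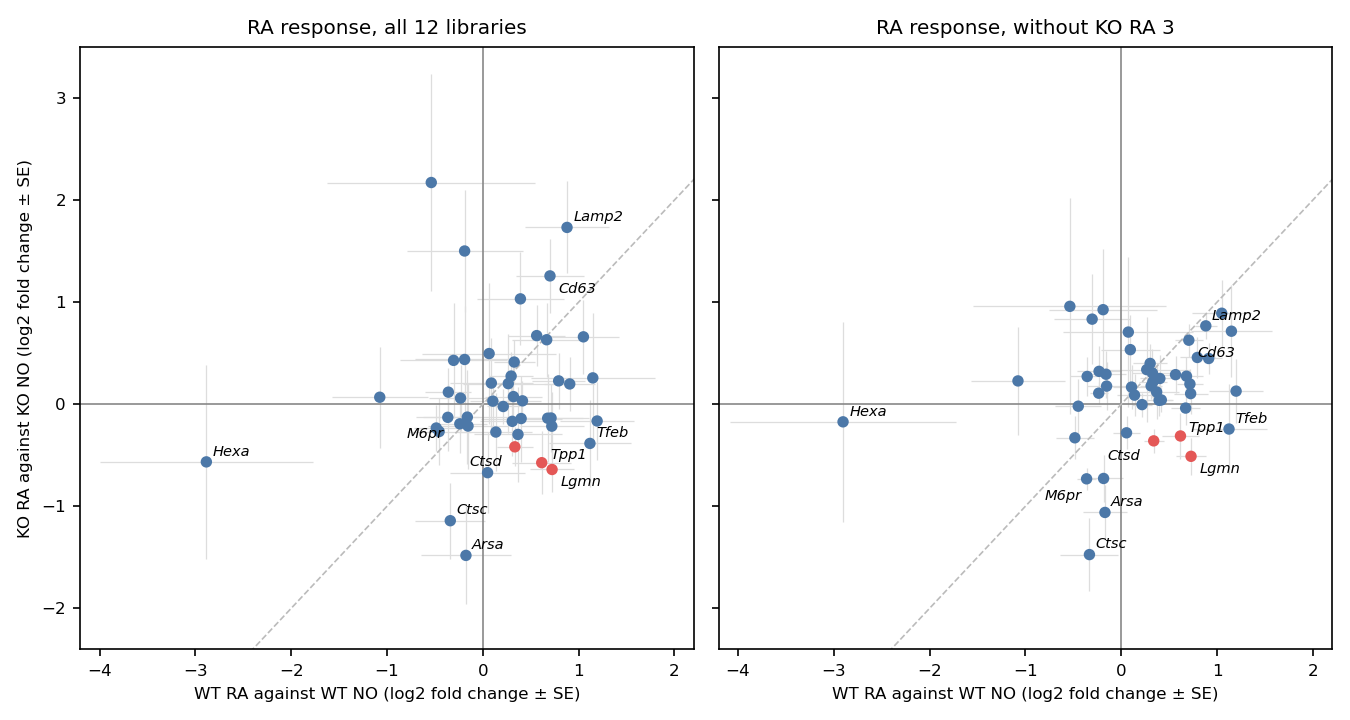
RA response of each of the 47 genes in WT (x axis, WT RA against WT NO) and KO (y axis, KO RA against KO NO), as log2 fold change with SE from edgeR, with all 12 libraries (left) and without the third KO RA library (right). Points on the dashed line would respond alike. Red marks Lgmn, Ctsd and Tpp1, which lie right of 0 in WT and below 0 in KO in both panels, while Lamp2 and Cd63 are above 0 in both genotypes.

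Beside these 47 genes, 113 further genes of the lysosome and its control were followed, of which 108 were tested. With all 12 libraries 0 were called in KO NO against WT NO, 1 higher and 1 lower in KO RA against WT RA, 1 higher in WT RA against WT NO, 2 higher and 2 lower in KO RA against KO NO, and 0 for the difference of the responses. The shares of all genes called higher and lower, in that order, were 0.788% and 0.351%, 0.885% and 0.358%, 0.321% and 0.0848%, 3.89% and 1.59%, and 0.00% in each direction. The counts without the third KO RA library were 20 higher and 5 lower, 4 and 9, 24 and 3, 7 and 6, and 1 and 4, beside shares of all genes of 4.43% and 4.35%, 4.42% and 5.44%, 5.65% and 5.13%, 8.48% and 7.54%, and 0.802% and 0.537%.

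Fnip1, a partner of folliculin in the control of mTORC1 and TFEB, was the companion called in the WT response. It was at 13.2, 12.5 and 12.4 CPM in WT NO and at 28.5, 28.3 and 31.5 CPM in WT RA. The groups were tight and apart, with a log2 fold change of 1.22 (SE 0.20, adjusted p = 0.0359, edgeR; 0.00053 without the third KO RA library). It was at 20.7, 24.8 and 24.3 CPM in KO NO, above all WT NO libraries (0.88, SE 0.20, adjusted p = 0.0687; 0.0018 without the third KO RA library). Flcn, folliculin itself, was at 25.2, 22.1 and 22.2 CPM in WT NO, 40.5, 44.5 and 38.5 CPM in WT RA, and 44.2, 40.4 and 41.3 CPM in KO NO. Both its differences from WT NO were without overlap, at 0.83 (adjusted p = 0.29; 0.00308) for WT RA and 0.85 (adjusted p = 0.268; 0.00201) for KO NO. Rragd, a Rag GTPase that brings mTORC1 to the lysosome, was at 28.4, 24.4 and 29.1 CPM in WT NO and at 50.6, 51.1 and 54.4 CPM in KO NO (0.93, SE 0.36, adjusted p = 0.317; 0.0025). The list of mTORC1 and TFEB control had 14 of 18 genes above 0 in KO NO against WT NO, with a median of 0.27. All companion genes together had 72 of 108 above 0 and a median of 0.23, beside 48.3% and -0.02 over all genes. Among the KO RA calls were Lamp5, a LAMP family member, at 6.004, 9.34 and 17.9 CPM in KO RA against at most 0.433 CPM in WT RA and 1.31 CPM in KO NO, and higher in both comparisons (6.06 and 3.55, adjusted p = 0.0286 and 0.0495; 0.0134 and 0.0514 without the third KO RA library, so the second call was lost). In KO RA against KO NO the V-ATPase subunit Atp6v0e2 was higher (1.25, adjusted p = 0.036; 0.00667), and the two-pore channel Tpcn2 (-1.64, adjusted p = 0.0101; 0.00535) and Mtor (-0.90, adjusted p = 0.019; 0.00337) were lower.

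The members with the E-box letters in their promoters were also set against those without. Between KO NO and WT NO the log2 fold changes had a median of 0.18 over the 13 with the CACGTG core and of 0.30 over the 34 without it. In WT RA against WT NO the medians were 0.33 and 0.25. For the difference of the responses they were -0.38 and 0.01, and -0.36 and -0.11 without the third KO RA library. With 4 members, the 8-letter form gave 0.44 in KO NO and 0.41 in WT RA, from a range of -0.16 to 0.79 and -0.19 to 1.19. These are descriptions of few genes.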

How the data were processed

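RNA was measured by mRNA-Seq in 12 libraries of NE-4C cells. The authors used the nf-core/rnaseq workflow at default (STAR, then Salmon) on GRCm39 and deposited estimated counts per gene, not normalized between libraries. Across the 3851 genes seen in a single library, values were lower for longer transcripts (Spearman rho -0.685), as in counts scaled from TPM, so a count is not a number of fragments and intervals of counting error were not given. Strand handling in the counting is not given in the sources used here.

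Counts were rounded to whole numbers and tested with edgeR 4.0.16 in R 4.3.3: filterByExpr with the 4 groups, TMM factors, 1 coefficient per group over all 12 libraries, robust quasi-likelihood F tests, and Benjamini-Hochberg adjustment over all 16502 genes in each of 5 comparisons, with a gene called at an adjusted p under 0.05. Without the third KO RA library 17327 genes were tested. The floor was 3 counts per library. The code was tested on simulated data. Alternatives were DESeq2 1.42.0 on all libraries, DESeq2's size factors or library totals in edgeR, limma-voom (limma 3.58.1) with quality weights, 2 other filters, only the groups compared, a replicate term and each library left out. DESeq2 on only the groups compared, and leaving out replicate 3 of both KO RA and WT NO, were added after the values were seen.

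Values are given for every member called with all 12 libraries, the 3 with the smallest p in each direction of each comparison, and always Tfeb, Tfe3, Mitf, Lamp1, Lamp2, Ctsd, Psap and Grn; other members appear by range, by role (up to 4 examples by level) or because they were called without the third KO RA library, after their values were seen. The same holds for the companion genes Flcn and Rragd. The values of 1 companion gene are not reported here. The members, companion and marker lists, tests and alternatives were chosen with earlier results of these data known. Promoters were read from the GRCm39 sequence at GENCODE vM39 canonical starts with Python 3.11.15, and figures drawn with matplotlib 3.10.9.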

Additional observations from a re-analysis of the deposited data

Results flagged for a closer look

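3 members shifted in opposite directions under RA in WT and KO cells, with every library of the RA group above every untreated library in WT and below every untreated library in KO. Over all genes tested, 0.497% showed this pattern and 0.388% its mirror image. The difference of the log2 responses, KO minus WT, was -1.36 for Lgmn (adjusted p = 0.286, edgeR), -0.75 for Ctsd (adjusted p = 0.482) and -1.19 for Tpp1 (adjusted p = 0.483), so none passed with all 12 libraries, and Lgmn passed without the third KO RA library (adjusted p = 0.0414). All 3 encode proteases of the lysosomal lumen. KO NO started above WT NO without overlap for each of them, so the shift in KO began from a higher level. With 3 libraries in a group, no group was examined for single outlying libraries by a test.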

How the results depend on the processing

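Over 1455 values (each named member, comparison and alternative), 43 lost and 86 gained a call, and 39 turned in direction, none of them where the member was called or named for its small p. On library totals the log2 difference turned for Psap (0.1814) and Grn (0.002653) in KO RA against WT RA, for Tfe3 (-0.1993), Mitf (-0.09691) and Psap (-0.1275) in WT RA against WT NO, and for Lamp1 (-0.2175) in KO RA against KO NO, where Lamp1 also turned with 1 count in any library (-0.01429). With limma-voom, and without the third KO RA and WT NO libraries together, it turned for Mitf in KO NO against WT NO (-0.217 and -0.3981), Psap (0.2977 and 0.271) and Grn (0.1566 and 0.1154) in KO RA against WT RA, Tfe3 (-0.01943 and -0.07808) and Mitf (-0.6813 and -0.3489) in WT RA against WT NO, Psap (0.08589 and 0.08971) and Grn (0.1409 and 0.1205) in KO RA against KO NO, and Lamp2 in the difference of the responses (-0.06116 and -0.1764). Over single libraries left out, the ranges that crossed 0 were Mitf -0.4084 to 0.4853 in KO NO against WT NO, Psap -0.3534 to 0.2687 and Grn -0.651 to 0.1131 in KO RA against WT RA, Tfe3 -0.08421 to 0.1676, Mitf -0.6946 to 0.5352 and Psap -0.02598 to 0.3963 in WT RA against WT NO, Lamp1 -0.03699 to 0.1341, Psap -0.5302 to 0.08859 and Grn -0.6418 to 0.1193 in KO RA against KO NO, and Mitf -0.04827 to 1.181 and Lamp2 -0.1153 to 1.251 for the difference. Counts of members called depended on the setting, and the cause was not tested. KO NO against WT NO (1 higher, 0 lower) had 0 higher on library totals, with either other filter (1 count in any library, 10 in every library) and with the replicate block, 4 with DESeq2 or only the groups compared, 13 higher and 1 lower with limma-voom, 8 and 1 with DESeq2 on only the groups compared, and 10 higher without the third KO RA and WT NO libraries together. KO RA against WT RA (2 and 0) had 0 higher on library totals and with only the groups compared, and 1 with either filter and with the replicate block. It had 3 and 1 with DESeq2, 3 and 0 with DESeq2 on only the groups compared, 6 and 4 with limma-voom, and 5 and 5 without both libraries. WT RA against WT NO (0 and 0) had 5 higher with DESeq2, 17 and 3 with limma-voom, 3 higher with only the groups compared, 12 and 1 with DESeq2 on those, and 16 and 3 without both libraries. KO RA against KO NO (1 and 0) had 0 higher with DESeq2's size factors, on library totals, with 1 count in any library, with only the groups compared and with the replicate block. It had 2 and 3 with DESeq2, 4 and 6 with limma-voom, 1 and 1 with DESeq2 on only the groups compared, and 4 and 6 without both libraries. For the difference of the responses (0 and 0), 2 were lower with DESeq2 and with limma-voom and 3 without both libraries. The shares of all genes called higher and lower, in the order of the 5 comparisons, were 3.31% and 3.19%, 5.30% and 3.12%, 3.27% and 2.64%, 10.5% and 6.35%, 1.37% and 0.608% with DESeq2, 10.9% and 10.8%, 9.77% and 8.36%, 10.8% and 10.8%, 15.2% and 12.3%, 3.63% and 2.44% with limma-voom, 8.03% and 7.29%, 9.33% and 9.50%, 8.92% and 9.34%, 12.5% and 12.8%, 3.06% and 3.11% without both libraries, and, for the first 4, 2.66% and 2.05%, 0.108% and 0.00%, 2.15% and 1.56%, 1.16% and 0.118% with only the groups compared and 6.59% and 6.65%, 3.25% and 1.49%, 6.83% and 6.02%, 7.19% and 3.78% with DESeq2 on those. On library totals the shares of all genes called higher were 0.606%, 0.485%, 0.00% and 0.745% for the first 4. They were 0.409%, 0.388%, 0.128% and 1.54% with 1 count in any library and 0.216%, 0.466%, 0.225% and 4.10% with 10 in every library. With the replicate block they were 0.303%, 0.297%, 0.0545% and 2.08%. With DESeq2's size factors 4.68% were called higher in KO RA against KO NO. Leaving out 1 library gave, as higher and lower, 0 to 6 and 0 for KO NO against WT NO, 0 to 3 and 0 to 1 for KO RA against WT RA, 0 to 11 and 0 to 1 for WT RA against WT NO, 0 to 2 and 0 to 3 for KO RA against KO NO, and 0 and 0 to 1 for the difference. The high counts came without the third KO RA library. The shares of all genes called higher over single libraries left out ran from 0.202% to 4.43%, 0.109% to 4.42%, 0.00% to 5.65%, 0.879% to 8.48% and 0.00% to 0.802%. Those called lower ran from 0.0231% to 4.35%, 0.00% to 5.44%, 0.00% to 5.13%, 0.243% to 7.54% and 0.00% to 0.537%. The 2 higher in KO RA against KO NO were also reached without the first or second KO RA library, beside 3.48% and 4.65% of all genes. The members' median moved by more than the spread between replicates (0.214) to 0.125 for KO RA against WT RA with limma-voom, from -0.106, and to 0.0668 for WT RA against WT NO on library totals, and ranged over single libraries left out from 0.156 to 0.284, -0.248 to 0.0136, 0.181 to 0.356, -0.0952 to 0.178 and -0.269 to -0.0703 in the order above. Replicate numbers did not pair the samples: libraries that shared a number deviated together with correlations of -0.167 to 0.0677. With at least 10 counts in every library 40 members were left, and Hexa gave no value. DESeq2 gave no adjusted p for Hexa between KO NO and WT NO alone.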
